A study of Rattus norvegicus with 9 samples.

Results

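Imprinted growth genes were examined in the RNA of mesenchymal stem cells grown from 3 fat deposits of the rat. A list of 10 genes was given, namely H19, Meg3, Dlk1, Peg3, Peg10, Sgce, Plagl1, Grb10, Mest, and Ndn, and its members were taken from the deposited table by name. Of these, 8 were found by name, and Meg3 was found under the older symbol RGD1566401 through its gene ID, so that 9 of the 35362 genes in the table are described. Peg3 was not analysed here. SASCs came from subcutaneous fat of the groin, PASCs from perirenal fat around the kidney, and EASCs from epididymal fat beside the testis of male Sprague-Dawley rats aged 6 weeks. All cells had been freed with collagenase, selected by attachment to the dish, and grown in serum to passage 3 without further treatment, and 3 samples were sequenced from each deposit. The methods count 6 replicates per deposit and call wells of culture plates replicates, the titles of all samples here share a prefix that is not explained, and no source names the animal behind each sample, so the p-values measure the spread between these samples, which may be technical. The question of the study was how ASCs of different deposits differ in gene expression and metabolites.

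Imprinted genes are expressed mainly from the allele inherited from 1 parent. In many cases this depends on DNA methylation laid down in the egg or sperm, which differs between the alleles. Many of them act on growth before and after birth, and paternally and maternally expressed members often have opposing effects. Several are abundant in the fetus and decline after birth, and some, such as Dlk1 and Mest, are known from the formation and growth of fat. The counts used here are totals of both alleles, so they do not show from which parent a transcript came. In bulk samples, fewer cells of a type and less RNA per cell cannot be told apart.

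Promoter sequences are shown because CpG dinucleotides are the sites at which DNA is methylated. They cover the members that were DEGs in both comparisons with SASCs (Mest, Plagl1, and Peg10), together with Sgce, which shares its promoter with Peg10. They are RefSeq sequences of the genome build GRCr8, from 5′ to 3′, with each CpG in capitals. The 250 bases before the start of Mest lie at chr4:60321564-60321813 (+ strand), those before Plagl1 at chr1:9297214-9297463 (+ strand), and the 237 bases between the divergent starts of Peg10 and Sgce at chr4:33808789-33809025, shown on the strand of Peg10.
Mest: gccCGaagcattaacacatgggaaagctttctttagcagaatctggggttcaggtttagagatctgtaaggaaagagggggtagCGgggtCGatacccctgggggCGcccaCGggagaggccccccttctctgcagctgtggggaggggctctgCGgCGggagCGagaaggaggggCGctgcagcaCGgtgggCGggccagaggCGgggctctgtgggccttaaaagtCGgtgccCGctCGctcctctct
Plagl1: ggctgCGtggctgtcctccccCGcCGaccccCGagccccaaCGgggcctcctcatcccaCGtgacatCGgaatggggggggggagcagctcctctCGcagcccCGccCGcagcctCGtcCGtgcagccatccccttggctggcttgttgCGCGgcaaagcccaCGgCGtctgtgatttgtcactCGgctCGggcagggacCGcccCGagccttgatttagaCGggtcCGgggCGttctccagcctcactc
Peg10 and Sgce: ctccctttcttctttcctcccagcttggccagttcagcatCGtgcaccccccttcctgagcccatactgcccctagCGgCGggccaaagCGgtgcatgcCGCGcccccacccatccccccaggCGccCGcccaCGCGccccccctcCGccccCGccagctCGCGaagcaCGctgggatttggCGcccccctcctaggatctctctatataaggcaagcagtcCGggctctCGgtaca
The sequence of Mest holds 15 CpG, that of Plagl1 23, and that between Peg10 and Sgce 18. RefSeq windows from 250 bases before to 50 after the start matched 8 of the members, and those of H19 are not shown. These windows held from 13 CpG (Meg3) to 45 (Dlk1), and all 8 lay above the median of 7 over the 33465 windows of the table. The letters TGCCGC, the core recognised by the imprint-maintaining protein ZFP57, were searched on both strands. They occurred in 6 of the 8 windows, against 11.7% of all windows and 25.0% of the windows with at least 13 CpG, and Peg10 and Sgce share the same match. A match of letters does not show that the protein binds there.

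The noncoding members H19 and Meg3 each carry a microRNA inside the gene, which is shown because the host transcript is its precursor. The mature RefSeq sequences follow from 5′ to 3′, with the seed (bases 2 to 8) in capitals, and the 4 seeds all differ. The pair in H19 lies at chr1:207161800-207161821 and chr1:207161766-207161786 (- strand), and the pair in Meg3 at chr6:134298094-134298115 and chr6:134298129-134298145 (+ strand), on GRCr8.
rno-miR-675-5p: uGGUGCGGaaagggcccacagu
rno-miR-675-3p: uGUAUGCCcuaaccgcucagu
rno-miR-770-5p: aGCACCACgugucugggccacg
rno-miR-770-3p: gUGGGCCUgacguggag
Levels of the microRNAs themselves were not measured.

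The total counts of the 9 samples ranged from 17591916 to 30299032, and the share of ribosomal RNA genes was 10.4% to 15.5% for SASCs, 22.4% to 32.9% for PASCs, and 15.9% to 40.3% for EASCs. Levels are given as CPM, counts scaled to a common library size with TMM factors of edgeR, on which such abundant genes have little influence. A gene at 3 counts had 0.104 to 0.159 CPM, and this limit covers counting error only. The counting intervals given below for summed counts also leave out the spread between samples, so they are too narrow where samples differ. All 9 members passed the filter on low counts and were tested with 14770 genes in total by edgeR's quasi-likelihood test, and a DEG had to change more than 2-fold with a p-value under 0.05 after Benjamini-Hochberg adjustment. H19 passed the filter through SASCs and PASCs. Both visceral groups were compared with the same SASCs, so these comparisons are not independent of each other.

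In EASCs, 5 of the 9 members were DEGs compared with SASCs, against 27.8% of all genes tested. Peg10 was upregulated (13.6% of all genes were), and H19, Meg3, Mest, and Plagl1 were downregulated (14.2%). In PASCs, 3 of the 9 members were DEGs, near the 26.9% of all genes, with Peg10 upregulated (12.0% of all genes) and Mest and Plagl1 downregulated (14.9%). Between EASCs and PASCs, 1 of the 9 members was a DEG, near the 7.39% of all genes. This was H19, which was lower in EASCs (2.20% of all genes were lower, and 5.19% higher). H19 was tested only through the groups where it was higher, which limits this count and that of 5 in EASCs. The median log2 fold change of the members was -0.32 in EASCs and 0.07 in PASCs compared with SASCs, and 0.14 between EASCs and PASCs, while the median over all genes tested lay between -0.01 and 0.01 in each comparison. The CPM of the samples did not overlap for 8 of 9 members between EASCs and SASCs, for 5 of 9 between PASCs and SASCs, and for 7 of 9 between EASCs and PASCs, against 72.1%, 71.6%, and 41.2% of all genes. By the adjusted p alone, whatever the fold change, 8 of 9 members passed in EASCs and 5 of 9 in PASCs compared with SASCs, and 6 of 9 between EASCs and PASCs, against 69.7%, 69.2%, and 30.7% of all genes. An exact permutation test of 3 samples against 3 cannot give a p-value below 0.1, so the p-values below come from the model across all genes.

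**Figure D1:**
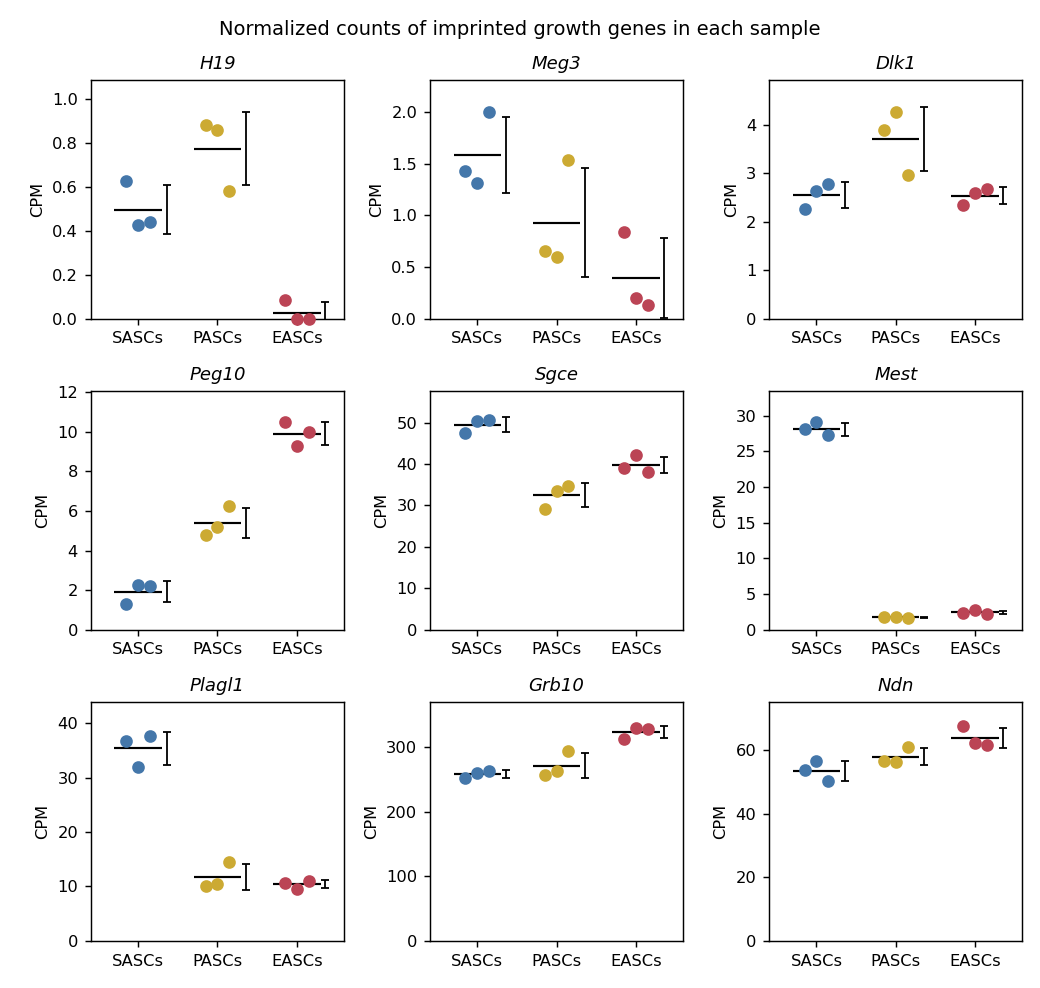
Level of each of the 9 members in CPM (linear axes from 0, a scale of its own for each gene) in the 3 samples of SASCs, PASCs, and EASCs, with points for samples, a horizontal line for the mean, and a bar beside it for ± 1 SD (n = 3). Mest and Plagl1 stood high in SASCs alone, Peg10 was lowest in SASCs and highest in EASCs, and H19 was at or near 0 in EASCs.

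Among the paternally expressed members, Mest had the largest difference between deposits. It codes for a protein of the alpha/beta hydrolase fold that is linked to the expansion of fat. Its row lies at chr4:58052786-58063227 (+ strand, rn6). SASCs had 28.1, 29.1, and 27.2 CPM, PASCs 1.84, 1.76, and 1.70, and EASCs 2.39, 2.72, and 2.24. All SASCs samples were far above the 6 others, and no groups overlapped. Mest was downregulated in PASCs by a log2 fold change of -3.99 ± 0.13 (SE, adjusted p = 2.54e-20), which is 15.9-fold, and in EASCs by -3.52 ± 0.12 (SE, adjusted p = 1.25e-19), which is 11.5-fold. The difference between EASCs and PASCs was 0.47 on the log2 scale (adjusted p = 0.0355), below the threshold of fold change.

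Plagl1 codes for a zinc finger transcription factor that arrests the cell cycle and regulates other imprinted genes. It lies at chr1:7219587-7270169 (+ strand, rn6). SASCs had 36.7, 32.0, and 37.6 CPM, PASCs 10.2, 10.4, and 14.5, and EASCs 10.6, 9.61, and 11.1. The SASCs samples were all above the rest, and the samples of PASCs and EASCs overlapped. Plagl1 was downregulated 3.06-fold in PASCs (log2 fold change -1.62 ± 0.11 SE, adjusted p = 4.15e-13) and 3.40-fold in EASCs (-1.76 ± 0.11 SE, adjusted p = 7.25e-14). Between EASCs and PASCs the log2 difference was -0.15, with a 95% interval from -0.40 to 0.10, and it turned to 0.02 without PASCs replicate 3.

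Peg10 is a gene derived from a retrotransposon, needed for the formation of the placenta, and lies at chr4:29795524-29804517 (+ strand, rn6). SASCs had 1.32, 2.25, and 2.20 CPM, PASCs 4.78, 5.20, and 6.25, and EASCs 10.5, 9.28, and 9.98. The groups did not overlap, with SASCs lowest and EASCs highest. Peg10 was upregulated 2.84-fold in PASCs (log2 fold change 1.51 ± 0.19 SE, adjusted p = 9.78e-08) and 5.24-fold in EASCs (2.39 ± 0.18 SE, adjusted p = 4.67e-12). EASCs were above PASCs by 0.88 on the log2 scale (adjusted p = 7.92e-05), below the threshold of fold change.

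Sgce, which codes for epsilon-sarcoglycan of the dystrophin-associated complex, starts beside Peg10 and runs away from it, at chr4:29726140-29769902 (- strand, rn6). SASCs had 47.5, 50.5, and 50.6 CPM, PASCs 29.2, 33.6, and 34.8, and EASCs 39.1, 42.1, and 38.2. SASCs were highest and PASCs lowest, without overlap, so the order of the groups was not that of Peg10. In the table the rows of Sgce and Peg10 lie 25622 bases apart. The log2 fold change of Sgce was -0.61 ± 0.07 (SE, adjusted p = 3.4e-08) in PASCs and -0.31 ± 0.07 (SE, adjusted p = 3.76e-04) in EASCs, and neither reached the threshold of fold change. In the table, Peg10 on the same strand and Sgce on the other both lie within the row of Col1a2, which spans 2040 kb and held 343404 counts in all, and whether reads were shared between these rows was not tested. The log2 fold change of Col1a2 was 0.82 in both comparisons with SASCs and -0.001 between EASCs and PASCs, unlike that of Peg10 and Sgce. H19 lies within the row of Cttn, which held 1 count in all, and Plagl1 within that of Vom2r6, which held 0.

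Dlk1 codes for preadipocyte factor 1, a membrane protein that holds back the differentiation of fat cells, and lies at chr6:133576513-133583751 (+ strand, rn6). SASCs had 2.26, 2.63, and 2.78 CPM, PASCs 3.90, 4.26, and 2.97, and EASCs 2.35, 2.59, and 2.68. PASCs were above both other groups, and SASCs and EASCs overlapped. The log2 fold change was 0.56 ± 0.21 in PASCs (SE, adjusted p = 0.02), below the threshold of fold change, and -0.003 in EASCs, with a 95% interval from -0.45 to 0.44. The sign of the latter changed with removal of ribosomal RNA genes or of single samples.

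Ndn codes for necdin, a suppressor of growth that is missing in Prader-Willi syndrome, and lies at chr1:122981755-122983354 (+ strand, rn6). SASCs had 53.6, 56.6, and 50.2 CPM, PASCs 56.5, 56.2, and 61.0, and EASCs 67.4, 62.2, and 61.5. EASCs were highest, and SASCs and PASCs overlapped. The log2 fold change of Ndn was 0.25 ± 0.06 in EASCs (SE, adjusted p = 0.00113) and that in PASCs was 0.11 (adjusted p = 0.127), and both turned negative (-0.14 and -0.21) when the counts were scaled by total counts without TMM. That scaling moved the median of all genes to -0.39 in EASCs and -0.33 in PASCs, so relative to the median Ndn still lay higher.

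The maternally expressed members comprised the noncoding RNAs H19 and Meg3 and the adaptor Grb10. H19 is a long noncoding RNA, abundant in the fetus, and lies at chr1:215744404-215747080 (- strand, rn6). SASCs had 18, 10, and 9 counts of H19, PASCs 23, 23, and 11, and EASCs 2, 0, and 0. In CPM, SASCs had 0.626, 0.425, and 0.439, PASCs 0.880, 0.860, and 0.583, and EASCs 0.0837, 0, and 0. The gene was thus low in all samples, SASCs and PASCs overlapped, and all EASCs samples were below the others and under the level of 3 counts. From the summed counts scaled by library size, the level in SASCs was 18.0 times that in EASCs, with an exact 95% counting interval from 4.65 to 154, and the level in PASCs was 28.2 times that in EASCs, from 7.45 to 238. Without EASCs replicate 1 both remaining EASCs samples were at 0. The fitted log2 fold changes were -3.93 ± 0.83 (SE, adjusted p = 1.63e-04) against SASCs and -4.56 ± 0.78 (SE, adjusted p = 3.99e-05) against PASCs. Their size depends on how counts near 0 are treated. Because H19 was tested only through its counts in SASCs and PASCs, these p-values are not read as support beyond the counts. Between PASCs and SASCs the log2 difference was 0.64, with a 95% interval from -0.34 to 1.61 (adjusted p = 0.24).

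Meg3, a long noncoding RNA of the same cluster as Dlk1, lies at chr6:133658913-133691130 (+ strand, rn6). SASCs had 41, 31, and 41 counts of Meg3, PASCs 17, 16, and 29, and EASCs 20, 5, and 3. In CPM, SASCs had 1.43, 1.32, and 2.00, PASCs 0.650, 0.598, and 1.54, and EASCs 0.837, 0.203, and 0.134. SASCs were above all EASCs samples, and PASCs overlapped with both. PASCs replicate 3 and EASCs replicate 1 stood above the other samples of their groups. Meg3 was downregulated 3.95-fold in EASCs (log2 fold change -1.98 ± 0.50 SE, adjusted p = 0.00107), and the change was -3.17 (adjusted p = 6.01e-05) without EASCs replicate 1. In PASCs the log2 difference was -0.81 (adjusted p = 0.114), which became -1.32 (adjusted p = 0.0257) without PASCs replicate 3 and -1.11 (adjusted p = 0.0167) without TMM, a scaling that moved the median of all genes to -0.33. Between EASCs and PASCs it was -1.18 (adjusted p = 0.1), which became -2.37 (adjusted p = 0.00605) without EASCs replicate 1. Dlk1 and Meg3 lie 75162 bases apart, and in EASCs Meg3 was a DEG while Dlk1 was not. The difference between these changes was not tested.

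Grb10 codes for an adaptor protein that dampens signalling from the insulin and IGF1 receptors, and lies at chr14:92021851-92117923 (- strand, rn6). SASCs had 251.7, 259.8, and 263.4 CPM, PASCs 257.0, 262.8, and 293.1, and EASCs 311.8, 328.6, and 327.3. EASCs were highest without overlap, and SASCs and PASCs overlapped. The log2 fold change of Grb10 was 0.32 ± 0.06 in EASCs (SE, adjusted p = 1.44e-05) and that in PASCs was 0.07 (adjusted p = 0.284), both below the threshold of fold change, and they turned to -0.07 and -0.25 without TMM, still above the median of all genes under that scaling (-0.39 and -0.33). A noncoding gene on the other strand, LOC103693175, overlaps Grb10 and held 1901 counts in all samples against 60908 of Grb10, and whether reads were shared between them was not tested.

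**Figure D2:**
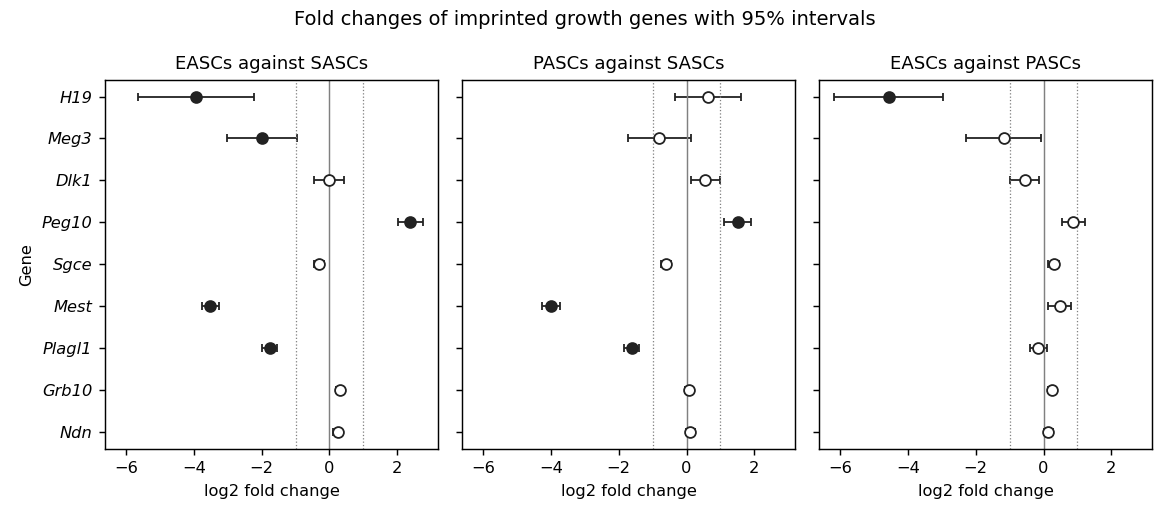
Log2 fold change (horizontal axis) of the 9 members in 3 comparisons, with bars for the 95% interval of the edgeR fit, dotted lines at a fold change of 2 in either direction, and filled points for DEGs. In EASCs against SASCs 5 points are filled, in PASCs against SASCs 3, and in EASCs against PASCs H19 alone.

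The order of the members was compared as FPKM, which divides CPM by the length of the gene in the table. Grb10 was highest in every group, with a mean of 49.8 FPKM in SASCs, 52.3 in PASCs, and 62.2 in EASCs (n = 3 each). In SASCs it was followed by Sgce and Ndn at 33.4 FPKM each, which overlapped, and then by Mest at 20.9 and Plagl1 at 7.30. Dlk1 at 1.60 and Peg10 at 0.800 came next, and H19 at 0.214 and Meg3 at 0.206 overlapped at the end. In PASCs the level of Mest was 1.31 FPKM, below Plagl1 (2.41), Dlk1 (2.32), and Peg10 (2.25), and those 3 genes overlapped with their neighbours in the order. In EASCs Peg10 came after Sgce at 4.12 FPKM, above Plagl1 (2.15), Mest (1.82), and Dlk1 (1.59), of which those next to each other overlapped. H19 at 0.012 and Meg3 at 0.051 overlapped at the end in EASCs. The noncoding members and Dlk1 were therefore low in all deposits, while Grb10, Ndn, and Sgce were the most abundant members in each.

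The genes around each member were compared to see which of them changed with it. The row of Copg2 lies 1167 bases beyond the end of Mest in the table, and Copg2 had log2 fold changes of -0.01 in EASCs and -0.01 in PASCs, and Cep41 on the other side had 0.52 and 0.69, so neither was a DEG beside the downregulated Mest. Of the 18 other genes tested within 1 Mb of Mest, 6 were lower and 0 higher in EASCs, and 5 were lower and 0 higher in PASCs, while 14.2% and 14.9% of all genes were lower. The neighbours of Plagl1, namely Sf3b5 (0.42 in EASCs and 0.47 in PASCs) and Ltv1 (0.15 and 0.16), were not DEGs either. Among the 12 other genes within 1 Mb of Plagl1, 1 was higher and 1 lower in each comparison with SASCs, against 13.6% higher and 14.2% lower of all genes in EASCs and 12.0% and 14.9% in PASCs. Phactr2, the nearest gene there that is reported as imprinted, had -0.99 in EASCs, past the fold threshold in 3 of 9 fits without 1 sample. In PASCs Phactr2 was a DEG at -1.66 (adjusted p = 2.92e-14).

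Igf2, the growth factor gene that shares enhancers with H19, lies 81022 bases from it. Its mean was 0.456 CPM in SASCs, 0.147 in PASCs, and 0.618 in EASCs, from 86 counts in all samples. SASCs had 7, 15, and 10 counts, PASCs 4, 2, and 4, and EASCs 18, 15, and 11. The PASCs samples were thus around the level of 3 counts, and Igf2 passed the filter through SASCs and EASCs, where it was higher. It was not a DEG in EASCs (log2 fold change 0.47, adjusted p = 0.414) but was lower in PASCs (-1.63, adjusted p = 0.0242) and higher in EASCs than in PASCs (2.10, adjusted p = 0.00881), where H19 was lower. Its call in PASCs was lost in 4 of 9 fits that each left out 1 sample, and that between EASCs and PASCs in 1, without PASCs replicate 2 (1.76, adjusted p = 0.0625). Mrpl23 on the other side of H19 had 0.64 in EASCs and 0.90 in PASCs. Sgce and Peg10 are followed by Ppp1r9a, which was higher in EASCs (1.08, adjusted p = 0.0421) with 111 counts in all samples but lost this call in 7 of those 9 fits, and preceded by LOC678772, which was not a DEG. In the same region Tfpi2 was upregulated and Pon3 downregulated in both comparisons with SASCs, and Pon3 lost its call in EASCs in 5 of the 9 fits. Around Grb10, 4 of 6 other genes were higher in EASCs and 3 of 6 in PASCs, against 13.6% and 12.0% of all genes, among them Fignl1 (2.96 and 3.16), while the nearest gene on the other side, LOC102552764, was not a DEG. Begain before Dlk1, LOC102546650 after Meg3, Mkrn3 after Ndn, and LOC102554833, the nearest gene tested before Ndn but 3408783 bases away, were not DEGs in any comparison.

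**Figure D3:**
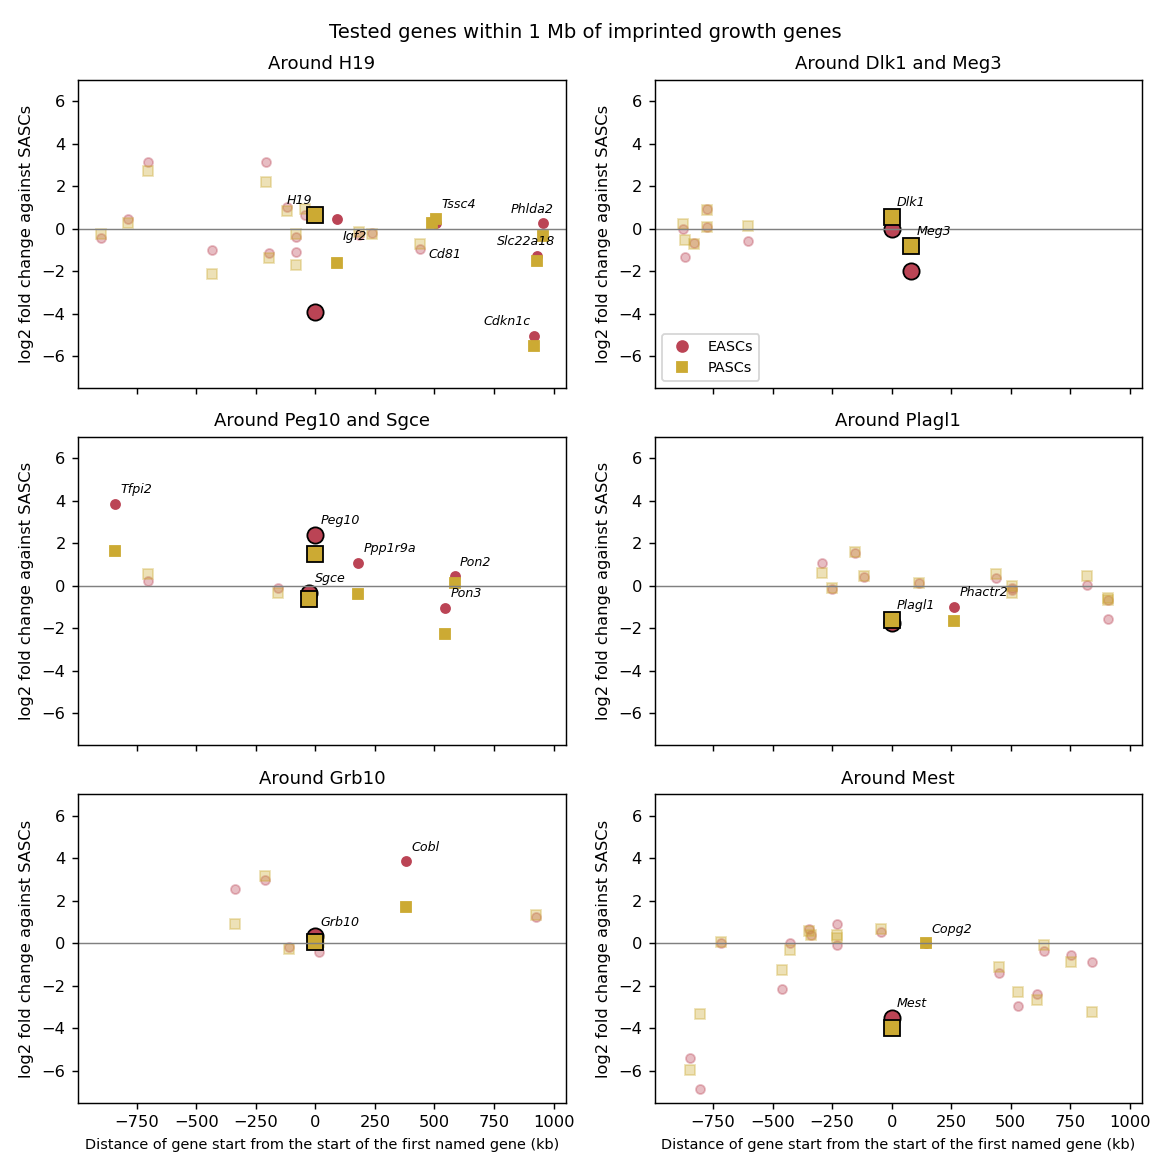
Log2 fold change against SASCs (vertical axis) of the tested genes within 1 Mb of H19, Dlk1, Peg10, Plagl1, Grb10, and Mest, by the distance of their start in kb (horizontal axis), with circles for EASCs and squares for PASCs. Large outlined points are members, dark named points are other genes reported as imprinted in some tissue, and pale points are the remaining genes. Mest stands lower than Copg2 and Cep41 beside it in both groups.

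To place the members among imprinted genes at large, 77 other genes were listed from general knowledge, of which 66 were found and 49 tested. They are reported as imprinted in mouse or rat in some tissue, and whether they are imprinted in these cells was not tested. In EASCs 20 of the 49 were DEGs (12 higher and 8 lower, median log2 fold change 0.28), in PASCs 16 (9 higher and 7 lower, median 0.12), and between EASCs and PASCs 11 (9 higher and 2 lower, median 0.06). These counts stand beside the 27.8%, 26.9%, and 7.39% of all genes given above. Dlx5, Rasgrf1, Gatm, and Cdh15, among the 12 higher in EASCs, passed the filter only through the groups where they were higher. Snrpn and Snurf, both among the 12 higher in EASCs, overlap on the same strand over 22133 bases and held 860 and 851 counts in all, so the same reads may have been counted for both.

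Cdkn1c, a maternally expressed inhibitor of cyclin-dependent kinases, was the most strongly downregulated. Its mean was 30.8 ± 1.04 CPM in SASCs, 0.691 ± 0.19 in PASCs, and 0.913 ± 0.20 in EASCs (SD, n = 3 each), with log2 fold changes of -5.51 in PASCs (adjusted p = 2.92e-21) and -5.06 in EASCs (adjusted p = 5.37e-21). As for Mest, SASCs were far above the other groups, and for Cdkn1c EASCs and PASCs overlapped. Htr2a, a serotonin receptor, was downregulated as well, by -2.14 and -2.40, as was the AMP deaminase Ampd3, by -3.34 and -1.91, in PASCs and EASCs. Slc22a18, an organic cation transporter beside Cdkn1c, had -1.51 and -1.28.

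In the other direction, the homeobox gene Dlx5 had 2, 3, and 0 counts in the SASCs samples and passed the filter through the other groups, where the means were 2.26 CPM (PASCs) and 5.14 CPM (EASCs). From the summed counts scaled by library size, PASCs had 32.5 times the level of SASCs (exact 95% counting interval 13.6 to 101). EASCs had 74.7 times the level of SASCs (31.7 to 232), and such intervals leave out the spread between samples. Tfpi2, an inhibitor of serine proteases, had 1.63 and 3.86, and Cobl, which nucleates actin, had 1.70 and 3.84. Both resembled Peg10 in that EASCs were highest, PASCs intermediate, and SASCs lowest. Dio3, the deiodinase that inactivates thyroid hormone and belongs to the cluster of Dlk1 and Meg3, was upregulated by 2.65 in PASCs and 2.26 in EASCs, with 4.41 CPM in SASCs, 27.6 in PASCs, and 21.0 in EASCs. Rasgrf1 had 6, 3, and 4 counts in the SASCs samples and passed the filter through the other groups, with a ratio to SASCs of 3.43 in PASCs (exact 95% counting interval 1.82 to 6.95) and 5.45 in EASCs (2.99 to 10.7). For Gatm, the SASCs samples had 0.209, 0.212, and 0.488 CPM, the PASCs samples 0.612, 0.486, and 1.48, and the EASCs samples 2.05, 2.72, and 1.92. It passed the filter through the other groups and was higher in EASCs (7.77 times SASCs from the summed counts, 4.92 to 12.9), whereas PASCs overlapped with SASCs, and the call in PASCs (1.48) was lost without PASCs replicate 3 (0.90, adjusted p = 0.13) or SASCs replicate 1 (1.25, adjusted p = 0.0521). Cdh15 had 2, 3, and 0 counts in the SASCs samples and passed the filter through the other groups. From the summed counts its ratio to SASCs was 5.68 in PASCs (2.17 to 18.8) and 4.31 in EASCs (1.58 to 14.6). Its call in EASCs was lost in 3 of the 9 fits that left out 1 sample. The matrix gene Smoc1 was higher in EASCs (2.34, adjusted p = 1.17e-15) and had -0.82 in PASCs. The amino acid transporter Slc38a4 was higher in PASCs (1.09, adjusted p = 0.00157, but under the fold threshold without SASCs replicate 3 or PASCs replicate 1) and lower in EASCs (-2.08, adjusted p = 3.19e-05), and it differed between EASCs and PASCs by -3.17 (adjusted p = 6.08e-08).

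**Figure D4:**
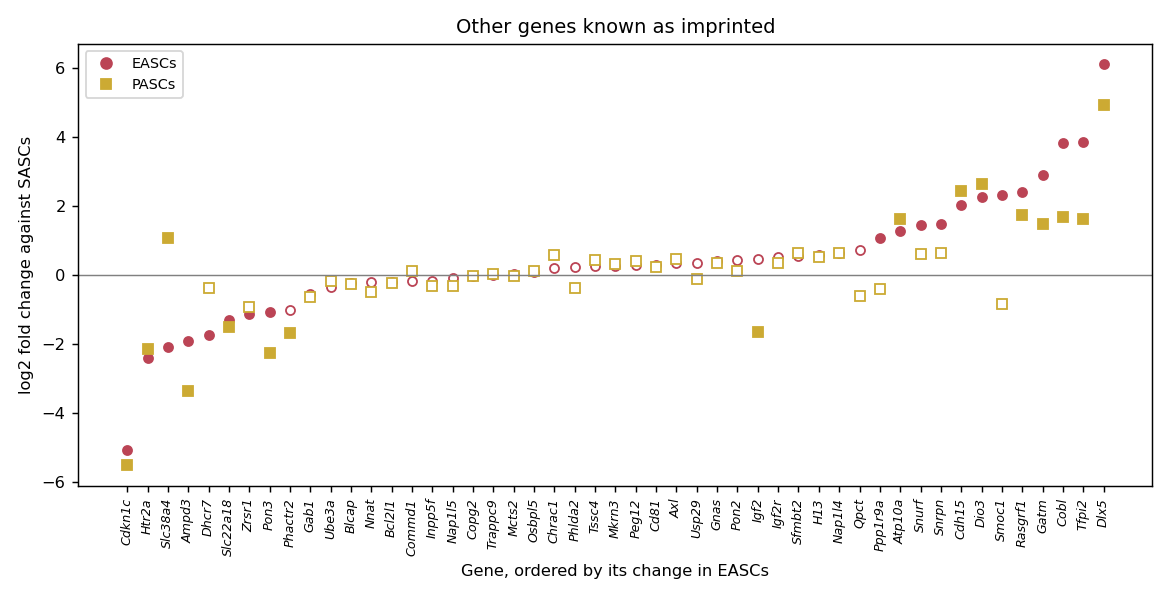
Log2 fold change against SASCs (vertical axis) of the 49 tested other genes reported as imprinted in some tissue, ordered by their change in EASCs. Circles are for EASCs, squares for PASCs, and filled symbols for DEGs. Cdkn1c lies at the low end and Dlx5 at the high end in both groups, and the point of Dlx5 is a fitted value against 5 counts in SASCs.

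Genes of the insulin and IGF pathway, on which Grb10 and Igf2 act, were listed next. Of 14 tested, 3 were higher and 4 lower in EASCs, 3 higher and 4 lower in PASCs, and 2 higher and 0 lower in EASCs compared with PASCs. The shares of all genes that were DEGs in these comparisons were 27.8%, 26.9%, and 7.39%. The binding protein gene Igfbp5 fell from 152.1 ± 7.10 CPM in SASCs to 0.882 ± 0.29 in EASCs and 0.226 ± 0.13 in PASCs (SD, n = 3), with log2 fold changes of -7.41 and -9.38. Igf1, the ligand, was 313.2 CPM in SASCs, 27.8 in EASCs, and 28.9 in PASCs (-3.49 and -3.44). Igf2bp1, which codes for an RNA-binding protein of Igf2 mRNA, and Igfbp2 passed the filter through EASCs and PASCs. Igf2bp1 had 4, 4, and 6 counts in the SASCs samples, and its ratio to SASCs was 8.73 in EASCs (exact 95% counting interval 5.00 to 16.4) and 6.52 in PASCs (3.69 to 12.4). Igfbp2 had 1, 1, and 3 counts in the SASCs samples, and its summed counts gave a ratio to SASCs of 17.2 in EASCs (exact 95% counting interval 7.11 to 54.5) and 20.1 in PASCs (8.32 to 63.2). Igf1r, the receptor, had -0.01 in EASCs and -0.27 in PASCs.

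Of 13 tested genes that maintain imprints, 2 were higher and 2 lower in EASCs, 2 higher and 0 lower in PASCs, and 0 higher and 1 lower in EASCs compared with PASCs. The number of 4 in EASCs is near the share of 27.8% over all genes, and the 2 in PASCs stand beside 26.9%. Uhrf1, which recruits the maintenance methyltransferase to replicated DNA, was higher in both (2.33 in EASCs and 2.68 in PASCs), as was that methyltransferase, Dnmt1 (1.01 and 1.35), although Dnmt1 in EASCs fell under the fold threshold without SASCs replicate 3 (0.97) or EASCs replicate 2 (0.93). Dnmt3b, which methylates DNA de novo, was lower in EASCs (-2.04) and had -0.74 in PASCs, with a call between EASCs and PASCs that was lost in 3 of the 9 fits that left out 1 sample. The chromatin gene Arid4b was lower in EASCs (-1.12) and had -0.996 in PASCs, below the threshold of fold change but past it in 3 of those fits. Zfp57 had 0.01 and -0.37. Of 8 tested genes that are co-expressed with imprinted growth genes in other tissues, a list that shares Cdkn1c, Gatm, Slc38a4, and Igf2 with those above, 1 was higher and 3 lower in EASCs, 2 higher and 3 lower in PASCs, and 2 higher and 1 lower in EASCs compared with PASCs, beside the same shares of all genes. Decorin (Dcn), a matrix proteoglycan of that list, was 6880 CPM in SASCs, 300.6 in EASCs, and 217.6 in PASCs (-4.52 and -4.98).

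The genes whose level was most like that of each member were found by Pearson's r of log2 CPM over the 9 samples, which share the 3 groups, so r describes the order of groups as well as of samples. For Mest these were Adam33 (r = 0.999) and Rin2 (0.999), for Plagl1 Gltscr1l (0.997) and Egr3 (0.995), and for Peg10 Selp (0.996) and Slc7a2 (0.994). Sgce was most like Slc27a6 (0.985) and Ebf4 (0.985), Grb10 most like Ankrd52 (0.985) and Fam167a (0.984), Dlk1 most like Akr1b8 (0.968) and Arf3 (0.953), and Ndn most like Xk (0.955) and Rfk (0.947). H19 was most like Mrps21 (0.988) and H1f0 (0.983), and Meg3 most like Trim23 (0.961) and Erp44 (0.958), whose own changes were far smaller than those of the member. Among the members themselves, Mest and Plagl1 had r = 0.960, while Peg10 had -0.905 with Plagl1 and -0.563 with Sgce, its partner at the shared promoter.

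Markers of cell types were read in the same samples. Of 10 mesenchymal stem cell markers, 9 were tested and Ly6al was under 0.5 CPM. In EASCs 2 were higher and 2 lower, and in PASCs 0 were higher and 3 lower. Pdgfra (log2 fold change -2.72 in EASCs and -2.47 in PASCs) and Dpp4 (-3.93 and -3.15) were lower in both groups, and Cd34 was lower in PASCs (-2.45). Eng (3.41-fold) and Itgb1 (2.82-fold) were higher in EASCs and below the threshold of fold change in PASCs. The summed level of the markers was 4151 to 4279 CPM for SASCs, 3786 to 3962 for PASCs, and 4963 to 5033 for EASCs. All 8 proliferation genes were higher in both visceral groups, with a sum of 77.0 to 78.6 CPM for SASCs, 654.9 to 664.4 for PASCs, and 384.3 to 395.4 for EASCs. Smooth muscle and pericyte markers (5 of 6 higher and 1 lower in both groups) had a sum of 96.1 to 100.5 CPM for SASCs, 1152 to 1186 for PASCs, and 2967 to 3001 for EASCs, with Rgs5, the marker that was lower, at 1.25 CPM in SASCs and under 0.5 CPM in the others. Mesothelial markers (4 of 6 higher in EASCs and 5 in PASCs, with Krt19 under 0.5 CPM) had 18.9 to 20.4, 94.7 to 102.2, and 125.7 to 137.0 CPM. Leukocyte markers (5 of 6 higher in EASCs and 2 in PASCs) had 38.6 to 41.4, 59.2 to 60.3, and 87.1 to 88.3 CPM. The reverse held for adipocyte markers (4 of 5 lower in both, with Lep under 0.5 CPM), at 87.1 to 95.9, 19.1 to 20.2, and 9.24 to 10.1 CPM. S100b, a gene of Schwann cells and adipocytes, was lower too, at 29.8 CPM in SASCs, 6.94 in PASCs, and 1.48 in EASCs, while Sox10 was under 0.5 CPM in all groups. Endothelial markers (1 of 5 higher and 1 lower in EASCs, 1 higher and 4 lower in PASCs) had 41.6 to 44.2, 11.5 to 14.3, and 29.3 to 32.1 CPM, and those of skeletal muscle (1 of 4 tested and lower in EASCs) had a sum of at most 0.727 CPM in PASCs and 0.162 CPM in EASCs. In SASCs this sum reached 3.52 CPM, in replicate 2, which had 69 counts of Ttn and 10 of Ckm against 0 to 2 in the other SASCs samples. Mest, Plagl1, and Peg10 thus changed in the same samples as proliferation, smooth muscle, mesothelial, leukocyte, and adipocyte genes, and the part of these in the members' changes was not tested.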

How the data were processed

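RNA selection, strand use, and the counting tool are not given in the sources used here. According to the methods, the authors trimmed paired-end reads and aligned them with TopHat to rn6, while the submitters' processing notes name rn5. The authors deposited whole-number counts per gene without normalization, and gene positions are those of the table, whose contig names are of rn6. Rn18s and Rn28s together held 0.9994 times the counts of Rn45s, which contains them, but the row of Cttn, which spans H19, held 1 count, so how reads of overlapping rows were counted is not known.

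Counts were filtered with filterByExpr, scaled by TMM (factors 0.740 to 1.23), and fitted in a single model of 3 groups with edgeR 4.0.16 in R 4.3.3, with no block for the replicate number. P-values were adjusted over 14770 genes within each comparison. Replicates differed beyond counting noise (chi-square per degree of freedom 6.15 to 280.62). In a test on simulated counts of EASCs and SASCs (14770 genes), 88 of 100 genes changed 2.5-fold and 92 of 100 changed 4-fold were recovered, with 2 false calls among the genes left unchanged. The list of members was given as names, without a rule on values, but it and the other gene lists were chosen with earlier results of these data known. Named genes were all members, their nearest tested neighbours (rows spanning 1 Mb or more left out, a choice made after the data were seen), the 2 genes most like each member, other imprinted DEGs (the 12 with the largest changes, and those within 1 Mb of a member), and at most 4 genes of each further list by size of change against SASCs. Igf1r, Zfp57, Pdgfra, Dpp4, Cd34, Eng, Itgb1, Snrpn, Snurf, and S100b were named beyond this rule after their values were seen. Sequences are of RefSeq GRCr8. Alternatives were DESeq2 1.42.0, limma 3.58.1 on log2(FPKM + 1), other filters, scalings, and thresholds, and leaving out samples. Some cell type markers are not reported here.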

Additional observations from a re-analysis of the deposited data

How the results depend on the processing

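H19, Meg3, and Igf2 rest on few counts, the origin of the replicates is not stated, and counts do not separate alleles. Samples of the same number had deviations correlated by -0.03 to 0.04, against -0.07 to 0.07 for different numbers. No pairing by number was seen, but 3 samples per group cannot show whether samples of a number share an animal or batch. With the replicate number as a block, 5, 3, and 1 members were DEGs in EASCs against SASCs, PASCs against SASCs, and EASCs against PASCs, with 4061, 3944, and 1067 of all genes and 18, 16, and 11 of the other imprinted genes, and no call of a member changed. In the same order of comparisons, a filter of at least 1 CPM in every sample, which left 7 members and 11381 genes, gave 3, 3, and 0 members, 2189, 2157, and 418 of all genes, and 12, 7, and 5 other imprinted genes. On log2(FPKM + 1) with limma, which understates changes of low genes, the numbers were 3, 2, and 0 members, 1895, 1823, and 265 genes, and 12, 9, and 5 other imprinted genes, as H19 (-0.26 and -0.40), Meg3 (-0.20), and Peg10 in PASCs (0.86) fell short of the fold. Without a minimum fold change, 8, 5, and 6 members, 10298, 10227, and 4530 genes, and 36, 38, and 20 other imprinted genes passed. A fold change above 1.5 gave 5, 4, and 2 members (with Sgce in PASCs and Peg10 in the last comparison), 6414, 6405, and 1945 genes, and 23, 24, and 14 other imprinted genes. The last comparison also had 2 members with no filter (Meg3, adjusted p = 0.0391). Leaving out each sample in turn gave 5 to 5, 3 to 4, and 1 to 2 members, 4115 to 4338, 3957 to 4133, and 970 to 1108 genes, and 18 to 21, 14 to 17, and 9 to 12 other imprinted genes. The number of 2 members came without EASCs replicate 1 and that of 4 without PASCs replicate 3, by Meg3. Total counts without TMM gave 1349 higher and 3426 lower genes in EASCs and 1262 and 3169 in PASCs, in place of 2002 and 2103, and 1779 and 2200, and reversed Grb10 (-0.0725 in EASCs, -0.2514 in PASCs) and Ndn (-0.143 and -0.2097), which all stayed above the median of all genes under that scaling (-0.39 and -0.33). Dlk1 in EASCs, near 0, changed sign without ribosomal RNA genes (0.0031), and had 0.021 without SASCs replicate 2, 0.059 without SASCs replicate 3, and 0.055 without EASCs replicate 1 (-0.0913 without SASCs replicate 1). Plagl1 between EASCs and PASCs turned to 0.018 without PASCs replicate 3. Over the single members, 463 of the refitted values kept direction and call, 9 reversed, 4 gained and 4 lost the call, and the causes were not tested. DESeq2, fits of the compared groups alone, and leaving out the EASCs and PASCs samples with the most ribosomal RNA (chosen after seeing the data) changed no call of a member. Calls of other named genes without 1 sample, also added after seeing the data, are given beside them.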
